A study of Gallus gallus with 9 samples.

Results

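The chemokine CXCL12 and its receptors CXCR4 and CXCR7 were followed in the olfactory placode of the chick embryo. The members were all probe sets to which the platform annotation gave exactly 1 gene symbol, that of CXCL12, CXCR4, ACKR3 or CXCR7. This rule found 6 probe sets for 3 genes, of 37693 chicken probe sets on the array and 13008 genes with a probe set of their own symbol. CXCL12 had 4 probe sets, and CXCR4 and CXCR7 had 1 each. ACKR3 is the newer name of CXCR7, which RefSeq (GRCg7b) lists as its synonym, and no probe set carried it as its symbol. The CXCL12 probe sets are called the first, the second, the third and the fourth below, from the highest to the lowest mean level, and the first is also called the brightest.

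Olfactory placodes, thickenings of the head ectoderm, were dissected at Hamburger and Hamilton (HH) stages 16, 18 and 20, with 3 biological replicates at each stage. The labels of the 9 samples named no treatment or genetic change, and the number of embryos behind a sample was not given. Total RNA was amplified, labelled with biotin and hybridised to 1 Affymetrix chicken array per sample, which gave 1 intensity per probe set. Each sample was a whole dissected tissue, so fewer cells of a type and less RNA per cell cannot be told apart.

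Chemokines are small secreted proteins that bind receptors with 7 membrane-spanning segments and direct the movement of cells. CXCL12 is the ligand of CXCR4, which signals through inhibitory G proteins, and of the atypical receptor CXCR7, which binds and internalises CXCL12, signals through arrestins and lowers the amount of free ligand. In mouse and zebrafish, CXCL12 guides neurons that leave the olfactory placode and produce gonadotropin-releasing hormone, and these neurons carry CXCR4.

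The arrays had not been scaled to each other. Their summed chicken intensities ran from 3670607.5 to 8339401.2, and HH16 replicate 1 was the brightest. Intensities were therefore compared after quantile normalization of log2(intensity + 16), and a log2 change below is always a difference between stage means on that normalized scale. The background level of an array was set at the 99th percentile of its 689 probe sets for viruses. It lay between 6.17 and 8.70 on 8 arrays and at 13.9 on HH18 replicate 2. Of the probe sets, 24489 were bright enough to be tested, 5 of the 6 members among them, and a change was called at an adjusted p under 0.05 in limma. The direction of calls across all genes between HH16 and HH18 depended on the scaling, with 50.9% of calls higher at HH18 here, 10.2% with median-centred arrays and 4.55% with the deposited values.

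CXCL12 was the member with the clearest signal, and 1 of its 3 tested probe sets, the brightest, fell between HH16 and HH18. That probe set dropped 1.64-fold by HH18, and at HH20 it was 1.67-fold below HH16. The second and the third had negative changes between HH16 and HH18 that did not pass the test. The third was above background on no HH18 array and was tested only through its HH16 values, which favoured a fall. Between HH18 and HH20 the difference of the brightest was close to 0. CXCR4, the signalling receptor, gave a weak signal that lay above background on every array at HH20 and on 3 of the 6 earlier arrays, but its change did not pass the test. CXCR7, the scavenging receptor, was at or near background at all 3 stages.

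The deposited intensities of the brightest CXCL12 probe set at HH16 were 1770.6, 953.9 and 805.7 in replicates 1 to 3. At HH18 they were 451.4, 611 and 422.6. At HH20 they were 823.2, 541.8 and 493.1. Every HH18 array was below every HH16 array, whereas HH20 replicate 1 was slightly above HH16 replicate 3 before the arrays were normalized. The signal was 44.05 to 203.6 times the background level of its array, so it was measured well above background at every stage.

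After normalization the brightest CXCL12 probe set had log2 levels of 9.97, 9.98 and 9.90 at HH16. The levels were 9.23, 9.42 and 9.06 at HH18, and 9.32, 9.19 and 9.12 at HH20. The 3 HH16 arrays stood apart above the other 6, and the HH18 and HH20 arrays overlapped. The stage means were 9.95 ± 0.04, 9.24 ± 0.18 and 9.21 ± 0.10 (SD, n = 3 each). A rank within an array does not depend on the scaling, and it showed the same separation: the probe set lay at percentiles 96.91 to 97.19 of the chicken probe sets at HH16, 92.98 to 94.73 at HH18 and 93.29 to 94.27 at HH20.

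**Figure D1:**
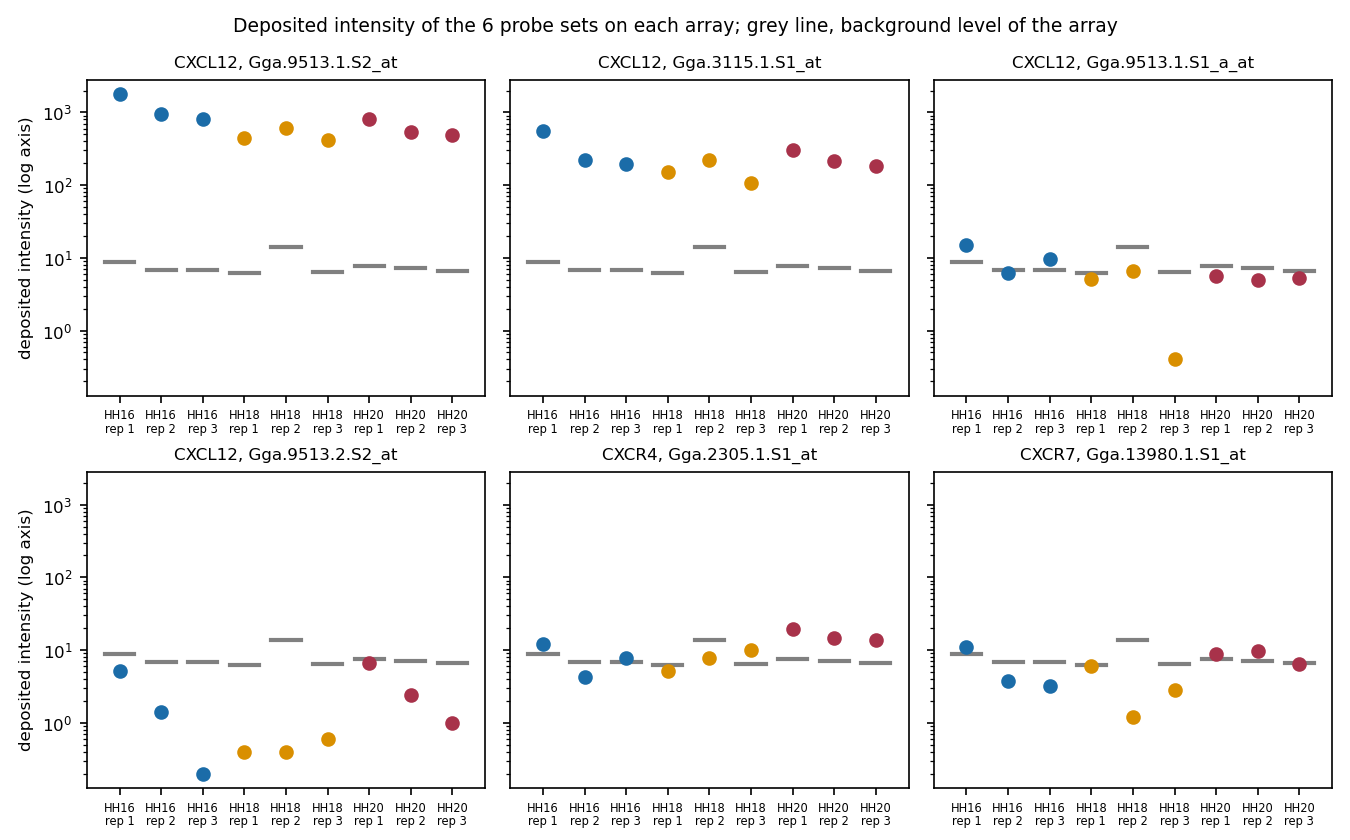
Deposited intensity (log axis) of the 6 member probe sets on each of the 9 arrays, 1 panel per probe set, with HH16 in blue, HH18 in orange and HH20 in red and a grey line at the background level of each array. The top panels show the first, the second and the third CXCL12 probe set and the bottom panels the fourth, CXCR4 and CXCR7; the first and second lie above the line on all arrays, and CXCR4 lies above it on all 3 HH20 arrays.

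Between HH16 and HH18 the brightest CXCL12 probe set changed by −0.71 ± 0.10 (log2, SE, 95% confidence interval −0.92 to −0.51), with an adjusted p of 0.00041. Of the 24489 probe sets tested, 127 had a larger fall in this comparison. From HH16 to HH20 the change was −0.74 ± 0.10 (95% confidence interval −0.94 to −0.54, adjusted p = 8.8e-05), and 235 probe sets had a larger fall. Between HH18 and HH20 the change was −0.02 ± 0.10 (95% confidence interval −0.23 to 0.18, adjusted p = 0.97). The drop of this CXCL12 probe set was thus in place by HH18, and the interval for the following step held both a small fall and a small rise.

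Whether the later step differed from the earlier one was tested directly. For the brightest CXCL12 probe set the later step minus the earlier step was 0.69 ± 0.17 (log2, SE, 95% confidence interval 0.34 to 1.04), with a p of 0.0007 in limma and an adjusted p of 0.16. The difference between the steps therefore did not pass the test after adjustment over all probe sets, in a comparison where 8 probe sets, or 0.0327% of those tested, were called. The F test over the 3 stages gave 37.7 for this probe set with an adjusted p of 9.4e-05.

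With the deposited values left unnormalized, the brightest CXCL12 probe set was still lower at HH18 (−1.16) and at HH20 (−0.86) than at HH16, but neither change passed the test (adjusted p = 0.17 and 0.50). With each array's median set to a common value the change between HH16 and HH18 was −1.07 with an adjusted p of 0.0027, in a fit where the median of all probe sets moved by −0.169.

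The second CXCL12 probe set had intensities of 555.8, 224 and 193.8 at HH16. Its intensities were 153.4, 218.4 and 106.4 at HH18, and 299.6, 216.3 and 182.9 at HH20. It too was above background on all 9 arrays, but its stages were less separated. Its normalized log2 levels were 8.29, 8.03 and 7.96 at HH16, 7.73, 7.97 and 7.29 at HH18, and 7.87, 7.88 and 7.77 at HH20. HH18 replicate 2 was level with the lower HH16 arrays, HH18 replicate 3 was the lowest of all 9 arrays, and the 3 HH20 arrays were all below the 3 HH16 arrays.

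The change of the second CXCL12 probe set between HH16 and HH18 was −0.43 ± 0.15 (95% confidence interval −0.75 to −0.12), with a p of 0.0097 in limma and an adjusted p of 0.11. It therefore had the sign of the brightest one but did not pass the test. Its change was 0.17 ± 0.15 between HH18 and HH20 (adjusted p = 0.79) and −0.26 ± 0.15 between HH16 and HH20 (adjusted p = 0.31). HH18 replicate 3 weighed on the value: without that array the change between HH16 and HH18 was −0.25 and that between HH18 and HH20 was −0.012. The latter was 0.33 without HH18 replicate 2, and the change between HH16 and HH20 was −0.16 without HH16 replicate 1.

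Because the first and the second CXCL12 probe set sat on the same arrays, their changes could be compared array by array. The normalized log2 level of the first minus that of the second was 1.68, 1.95 and 1.94 at HH16. The same difference was 1.50, 1.45 and 1.77 at HH18, and 1.45, 1.31 and 1.36 at HH20. These differences had means of 1.86 ± 0.15 at HH16, 1.57 ± 0.18 at HH18 and 1.38 ± 0.07 at HH20 (SD, n = 3 each). Every HH20 array was below every HH16 array, with an exact two-sided permutation p of 0.1, which is the smallest that 3 arrays against 3 can give. The exact permutation p was 0.2 between HH16 and HH18 and 0.2 between HH18 and HH20. Which transcripts each probe set measures is not given in the sources used here.

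The third and the fourth CXCL12 probe set were dim. The third had intensities of 15.2, 6.2 and 9.5 at HH16, 5.1, 6.6 and 0.4 at HH18, and 5.7, 4.9 and 5.2 at HH20. It was above background on 2 HH16 arrays and on none of the later arrays, and every later array lay below every HH16 array on the normalized scale. Its change was −0.36 ± 0.15 between HH16 and HH18 (adjusted p = 0.19), 0.09 ± 0.15 between HH18 and HH20 (adjusted p = 0.91) and −0.27 ± 0.15 between HH16 and HH20 (adjusted p = 0.28). It was bright enough to be tested through HH16: it exceeded the limit for testing, the 40th percentile of an array, on 3 HH16 arrays, 1 HH18 array and 0 HH20 arrays, so its lower values at later stages were favoured by the filter. The fourth was above background on 0 of 9 arrays, with intensities from 0.2 to 6.6, and was too dim to be tested. A probe set at background gives only an upper limit for its target, so this one bears on neither the presence nor the change of CXCL12.

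CXCR4 is the receptor through which CXCL12 directs migrating cells. The intensities of its 1 probe set were 12.2, 4.3 and 7.8 at HH16. They were 5.1, 7.7 and 10.1 at HH18, and 19.5, 14.6 and 13.7 at HH20. CXCR4 exceeded background in HH16 replicates 1 and 3, in HH18 replicate 3 and in all HH20 replicates, where it was 2.046 to 2.558 times the background level. The 3 HH20 arrays had the highest CXCR4 intensities of the series.

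On the normalized log2 scale CXCR4 stood at 4.59, 4.39 and 4.69 at HH16, at 4.51, 4.44 and 4.89 at HH18, and at 4.96, 4.95 and 4.98 at HH20. The HH20 arrays lay close together and above all others, while HH16 and HH18 overlapped. The stage means were 4.56 ± 0.15, 4.61 ± 0.24 and 4.96 ± 0.01 (SD, n = 3 each). Within its array the CXCR4 probe set lay at percentiles 35.9 to 50 at HH16, 38.86 to 55.66 at HH18 and 56.85 to 57.48 at HH20.

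The change of CXCR4 was 0.06 ± 0.15 between HH16 and HH18 (adjusted p = 0.88). Between HH18 and HH20 it was 0.35 ± 0.15 (95% confidence interval 0.03 to 0.67), with a p of 0.035 in limma and an adjusted p of 0.48. From HH16 to HH20 it was 0.40 ± 0.15 (95% confidence interval 0.08 to 0.72), a 1.32-fold difference with a p of 0.016 and an adjusted p of 0.1. CXCR4 was thus higher on 3 of 3 HH20 arrays than on any earlier array, but the difference did not pass the test over all probe sets. Its size depended on the pseudocount, the constant added before the logarithm: the change between HH16 and HH20 was 0.94 with a pseudocount of 1 (adjusted p = 0.14) and 0.15 with a pseudocount of 64 (adjusted p = 0.089).

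CXCR7 binds CXCL12 without coupling to G proteins. Its probe set had intensities of 11.1, 3.8 and 3.2 at HH16. The intensities were 6, 1.2 and 2.8 at HH18, and 8.9, 9.6 and 6.5 at HH20. CXCR7 exceeded background in HH16 replicate 1 and in HH20 replicates 1 and 2, and on no HH18 array. The stages overlapped on the normalized scale, with means of 4.41 ± 0.13 at HH16, 4.32 ± 0.25 at HH18 and 4.59 ± 0.09 at HH20 (SD, n = 3 each).

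The change of CXCR7 was −0.09 ± 0.15 between HH16 and HH18 (95% confidence interval −0.41 to 0.23, adjusted p = 0.80). It was 0.27 ± 0.15 between HH18 and HH20 (95% confidence interval −0.05 to 0.59, adjusted p = 0.63) and 0.18 ± 0.15 between HH16 and HH20 (95% confidence interval −0.14 to 0.50, adjusted p = 0.53). CXCR7 was tested through HH20, where it exceeded that limit on all 3 arrays, against 1 array at each earlier stage, so the filter favoured its higher values at HH20. At this signal the array could show neither that CXCR7 changed nor that it stayed level.

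**Figure D2:**
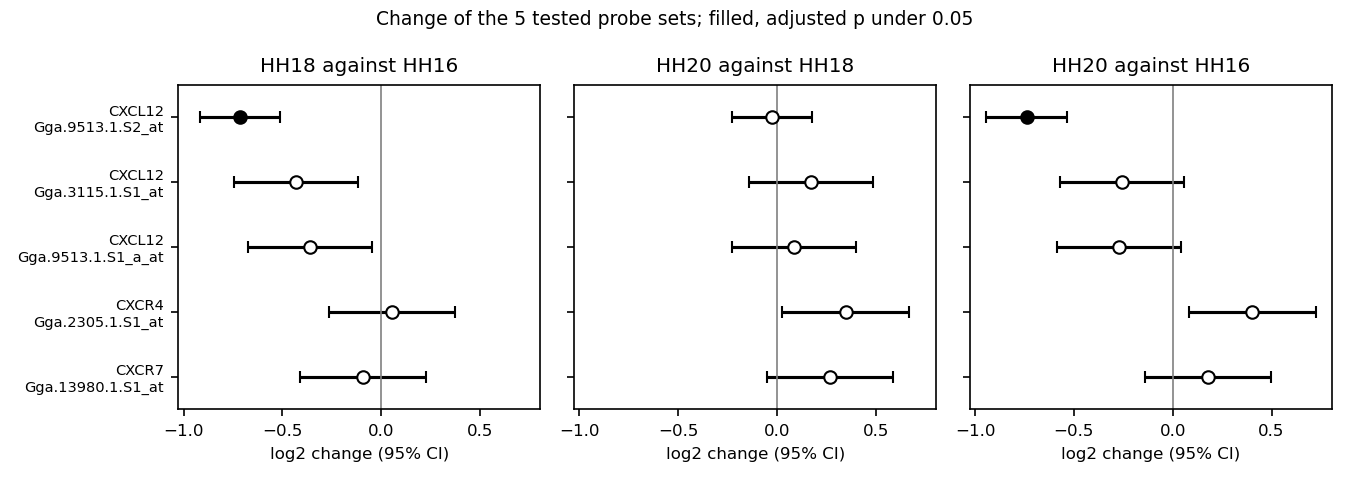
Log2 change (x axis, points) with its 95% confidence interval (bars) for the 5 tested member probe sets in the 3 stage comparisons; filled points have an adjusted p under 0.05. The brightest CXCL12 probe set is filled at −0.71 for HH18 against HH16 and at −0.74 for HH20 against HH16, and the CXCR4 interval of 0.08 to 0.72 for HH20 against HH16 is open.

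Across the 5 tested members, 1 was called between HH16 and HH18, where 4.54% of all tested probe sets were called and 2.23% were called lower. Between HH18 and HH20, 0 of 5 were called in limma, against 0.359% of all tested probe sets. An unadjusted p under 0.05 was held by 1 of 5, CXCR4, and by 9.27% of all tested probe sets. Such a p was held by 3 of 5 between HH16 and HH18, against 19.1%, and by 2 of 5 between HH16 and HH20, against 24.2%. The 3 were CXCL12 probe sets and included the third, whose fall the filter favoured. Between HH16 and HH20, 1 of 5 was called, against 10.9% called and 5.1% called lower, and in the F test 1 of 5, against 8.7%. The called member was in each case the brightest CXCL12 probe set.

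Groups that did not overlap were common in this series. The third CXCL12 probe set and CXCR7 were tested through 1 stage each and are left out here, which leaves 3 members. Between HH16 and HH18, 1 of these 3, the brightest CXCL12 probe set, did not overlap and was lower at HH18, against 21.5% of all tested probe sets that did not overlap and 10.9% that were lower. Between HH18 and HH20 this held for CXCR4, which was higher, against 15.1% and 8.01% that were higher. Between HH16 and HH20 it held for 3 of 3, against 30.5%: 2 CXCL12 probe sets were lower, as were 15.1% of all tested probe sets, and CXCR4 was higher, as were 15.4%.

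Other chemokine ligands were mostly at background. Of 25 genes on the list of other ligands, 14 had a probe set of their own, and 9 of these were above background on no array, among them CCL17, CCL19, CCL20 and XCL1. CXCL14, a chemokine made by epithelia, was the 1 gene of the list above background on all 9 arrays. Its intensities were 457.1, 236.3 and 224.2 at HH16, 162.9, 304.5 and 265.1 at HH18, and 343.2, 289.9 and 219.6 at HH20. These ranges overlapped at all stages, and the log2 change of CXCL14 was 0.15 ± 0.15 between HH16 and HH18 (adjusted p = 0.65) and 0.03 ± 0.15 between HH16 and HH20 (adjusted p = 0.94). Of the 3 ligands bright enough to be tested, CXCL14, CXCL13L2 and CCLL4, 0 were called in limma in any stage comparison and 0 had an unadjusted p under 0.05.

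Other chemokine receptors gave no signal above background on all arrays. Of 20 genes on that list 11 had a probe set, and 7 were above background on no array, namely CXCR5, XCR1, CCR4, CCR6, CCR8L, ACKR2 and GPER1 (GPER1 is an oestrogen receptor once grouped with them). Only CX3CR1, the fractalkine receptor of macrophages, could be tested, and it was not called in limma, nor was its unadjusted p under 0.05, in any stage comparison. CXCR4 was thus, with CX3CR1 and CXCR7, among the few chemokine receptors that could be tested here.

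A further list held genes whose products bind, trim or switch off CXCL12 and its receptors. Of its 33 genes, 23 were tested. Between HH16 and HH20, 3 rose, 1 fell and 19 did not pass the test, with a median log2 change of 0.18 against 0.00 over all tested probe sets, of which 10.9% were called. Between HH16 and HH18, and between HH18 and HH20, 0 were called in limma, while 10 and 4 of the 23 had an unadjusted p under 0.05, against 19.1% and 9.27% of all tested probe sets.

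RGS3, a protein that speeds the shutdown of G protein signals and that in mouse cerebellum links ephrin-B to a weaker response to CXCL12, had the largest change of the partner genes. Its intensities were 230.4, 159.5 and 126.2 at HH16, 68.9, 60.9 and 97.4 at HH18, and 73.1, 50.6 and 44.2 at HH20. All HH20 arrays were below all HH16 arrays. RGS3 fell 2.46-fold between HH16 and HH20 (log2 change −1.30 ± 0.18, adjusted p = 0.00017). Its 5 other tested probe sets had changes from −0.42 to 0.02 and none was called, so this fall was seen by 1 probe set of 6.

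The partner genes that rose between HH16 and HH20 were CD74, DPP4 and ADM. CD74, which forms a receptor complex with CXCR4 for the cytokine MIF and is also a gene of antigen-presenting cells, rose 1.58-fold (log2 change 0.66 ± 0.12, adjusted p = 0.0022), and its 2 other probe sets had changes of 0.18 and 0.36 that were not called. DPP4, a membrane peptidase that trims the amino terminus of CXCL12, rose 1.51-fold (0.60 ± 0.16, adjusted p = 0.023). Its intensities were 31.1 to 54.2 at HH16 and 57.2 to 79.9 at HH20, and the call was lost when any 1 of HH16 replicates 1 and 2 or HH20 replicates 1, 2 and 3 was left out (adjusted p = 0.058 to 0.093). ADM encodes adrenomedullin, a peptide that CXCR7 also binds. ADM was above background on no HH16 array and on all 6 later arrays, and it was at least 1.46-fold higher at HH20 than at HH16 (adjusted p = 0.0099). Its call was lost without HH20 replicate 1 (adjusted p = 0.06), and with the deposited values left unnormalized RGS3 was the 1 partner gene of these 4 that kept its call. With median-centred arrays the calls on CD74 and DPP4 were lost, and those on RGS3 and ADM were kept.

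Signalling genes acting below CXCR4 moved in both directions. Of 48 listed genes 39 were tested. Between HH16 and HH18, 1 rose, 2 fell and 36 did not pass the test, with a median log2 change of 0.07, against 4.54% of all tested probe sets called. Between HH18 and HH20, 0 were called in limma and 4 of 39 had an unadjusted p under 0.05, against 9.27% of all tested probe sets. Between HH16 and HH20, 5 rose, 3 fell and 31 did not pass, with a median of 0.06, against 10.9% of all tested probe sets called.

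The genes that fell encode parts of the G protein and of the lipid kinase that it activates. GNB4, a G protein beta subunit, had intensities of 139.1 to 362.1 at HH16, 59 to 90.2 at HH18 and 101.4 to 107.7 at HH20. Its log2 change was −0.82 ± 0.15 between HH16 and HH18 (adjusted p = 0.005) and −0.74 ± 0.15 between HH16 and HH20 (adjusted p = 0.0039). The other tested GNB4 probe set had uncalled changes of −0.32 between HH16 and HH18 and 0.17 between HH16 and HH20. GNAI2, an inhibitory alpha subunit of the kind CXCR4 couples to, fell by 0.52 ± 0.11 on the log2 scale between HH16 and HH18 (adjusted p = 0.016) and by 0.42 ± 0.11 between HH16 and HH20 (adjusted p = 0.025). PIK3R5, a regulatory subunit of the phosphoinositide 3-kinase driven by G proteins, fell by 0.48 ± 0.12 between HH16 and HH20 (adjusted p = 0.015), and its other probe set changed by −0.56 (adjusted p = 0.0024). The PIK3R5 call was lost without HH16 replicate 3, HH20 replicate 1 or HH20 replicate 2 (adjusted p = 0.052 to 0.077). The GNAI2 call at HH18 was lost without HH16 replicate 3 or HH18 replicate 2 (adjusted p = 0.073 and 0.08), and that at HH20 without HH16 replicate 2 or 3 or any 1 HH20 replicate (adjusted p = 0.051 to 0.11). The probe set with the highest mean was followed through other settings for each signalling gene named here or in the next paragraph. None of these probe sets kept a call with the deposited values left unnormalized. With median-centred arrays their calls between HH16 and HH20 were all lost too. Other probe sets of these genes were not followed. The calls of GNB4 and GNAI2 between HH16 and HH18 remained with median-centred arrays.

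The genes that rose between HH16 and HH20 encode another kinase subunit, a G protein gamma subunit and regulators of actin. PIK3R1, the p85 alpha subunit of phosphoinositide 3-kinase, rose by 0.66 ± 0.12 (log2, adjusted p = 0.0016), and both of its other tested probe sets were called in the same direction. GNG10, a gamma subunit, rose by 0.59 ± 0.14 (adjusted p = 0.0094, and 0.058 without HH20 replicate 1). LIMK2, which phosphorylates the actin-severing protein cofilin, rose by 0.54 ± 0.09 (adjusted p = 0.00081), and DOCK1, an activator of Rac, by 0.49 ± 0.15 (adjusted p = 0.04). The DOCK1 call was lost under 10 of 20 other settings, among them without any 1 of HH16 replicates 1 and 2 or the 3 HH20 replicates (adjusted p = 0.061 to 0.15), and its 4 other probe sets had uncalled changes from −0.41 to −0.06. RAC1 gave opposed calls: 1 probe set changed by 0.26 ± 0.07 (adjusted p = 0.022) and the other by −0.39 ± 0.10 (adjusted p = 0.016). RAC1 therefore has no settled direction, and its change between HH16 and HH18, 0.28 ± 0.07 (adjusted p = 0.029), was −0.10 with the deposited values and −0.020 with median-centred arrays.

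**Figure D3:**
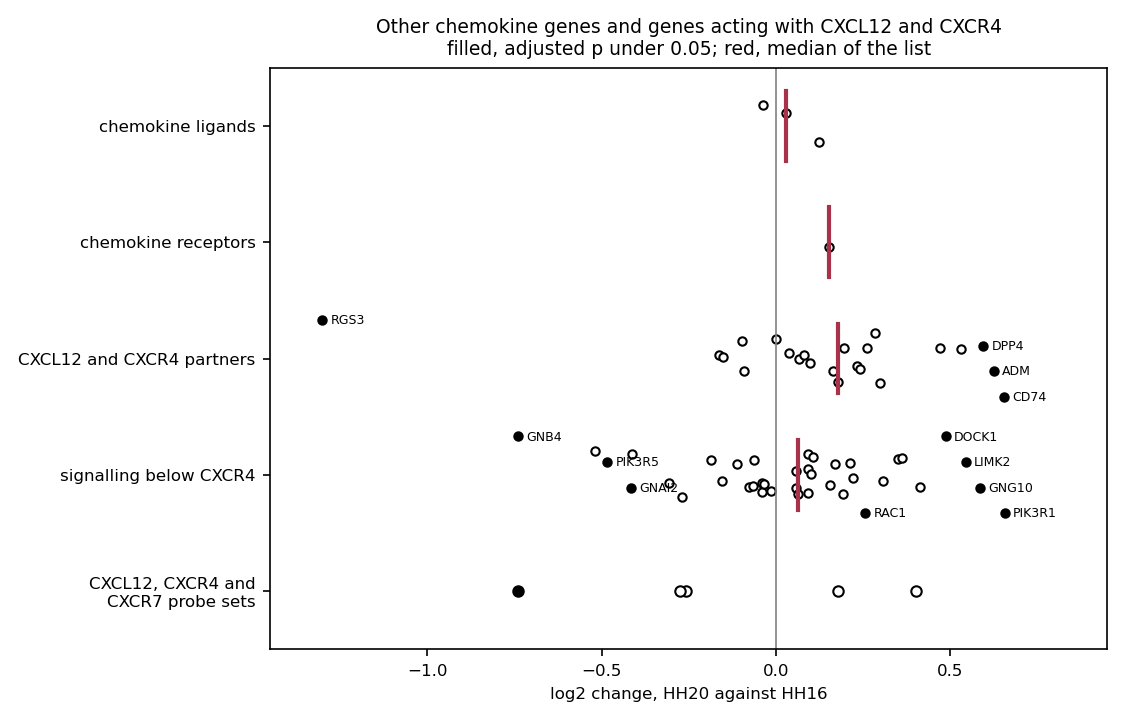
Log2 change between HH16 and HH20 (x axis) of the tested genes on 4 lists, 1 point per gene, and of the 5 tested CXCL12, CXCR4 and CXCR7 probe sets, with filled points at an adjusted p under 0.05 and a red line at the median of each list. RGS3 at −1.30 lies farthest below 0, and CD74 and PIK3R1 at 0.66 lie farthest above it.

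The tissue and its cell types were checked with marker lists, given as levels summed over the genes of a list on the normalized linear scale. The 17 olfactory placode markers with a probe set had sums of 8834 to 10030 at HH16, 9764 to 9948 at HH18 and 9563 to 10120 at HH20, and 16 of the 17 were above background on all arrays. Single markers did change. In limma 0 of 17 were called between HH16 and HH18, and 1, FGF8, rose by 0.83 (log2) between HH18 and HH20. Between HH16 and HH20, 2 rose and 1 fell, with EMX2 changing by 0.69 and OTX2 by −0.39. Of all tested probe sets, 4.54%, 0.359% and 10.9% were called in these comparisons, in order. The FGF8 call was lost under 13 of 20 other settings and the OTX2 call under 8. CXCL12 can be made by mesenchyme and neural crest cells, and genes on the lists of both were above background. This held on all arrays for 21 of 27 mesenchyme genes and 12 of 15 neural crest and glia genes with a probe set. The share of either cell type in the samples was not measured. The mesenchyme sums were 8222 to 8839 at HH16, 8756 to 10500 at HH18 and 10040 to 10610 at HH20, with TWIST2, TBX18 and ALX4 above background on no array. Of 23 tested mesenchyme genes, 3 rose and 1 fell between HH16 and HH18, against 4.54% of all tested probe sets called. Between HH16 and HH20, 7 rose and 2 fell, against 10.9% called. OGN, above background on 1 HH16 array, rose by 1.44 and COL5A2 by 1.43 on the log2 scale. The 2 that fell were SNAI2 (−1.02), which is also on the neural crest list, and PRRX2 (−0.81). In this comparison 9 of the 23 had negative changes.

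The summed levels of neural crest and glia genes were 3600 to 4037 at HH16, 2904 to 3436 at HH18 and 2901 to 3290 at HH20, with NGFR above background on no array. FABP7, the brightest tested gene of the list, weighed most on these sums. Its mean log2 levels were 10.99 at HH16, 10.55 at HH18 and 10.66 at HH20, and it was called lower at both later stages than at HH16. Of 13 tested, 1 rose and 3 fell between HH16 and HH18, and 1 rose and 5 fell between HH16 and HH20, while 9 and 7 did not pass the test. Of all tested probe sets, 4.54% were called and 2.23% called lower between HH16 and HH18. Between HH16 and HH20 these shares were 10.9% and 5.1%. SNAI2, a transcription factor of migrating crest and mesenchyme, changed by −0.81 ± 0.13 between HH16 and HH18 (adjusted p = 0.0017), and ZEB2, a related regulator, by −0.77 ± 0.16 (adjusted p = 0.011). The ZEB2 call was lost without HH16 replicate 3 or HH18 replicate 2 (adjusted p = 0.051 and 0.057). By HH20, relative to HH16, PAX7 fell by 1.03 and SNAI2 by 1.02 on the log2 scale. EDNRB, an endothelin receptor of neural crest cells, went the other way: it rose by 0.65 between HH16 and HH18 (adjusted p = 0.0098) and by 0.88 between HH16 and HH20 (adjusted p = 0.00036). Of the 13 tested genes, 10 had negative changes between HH16 and HH20, while SOX10 and FOXD3 had uncalled changes of 0.05 and 0.33. The part of neural crest or mesenchyme in the fall of the brightest CXCL12 probe set was not tested.

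Neurons and blood cells bear on CXCR4, which both can carry. The neuron sums were 1725 to 2232 at HH16, 2674 to 2758 at HH18 and 3499 to 3787 at HH20. Of 16 tested neuron genes 6 rose between HH16 and HH18, 3 between HH18 and HH20 and 14 between HH16 and HH20, with none falling. Of all tested probe sets, 4.54%, 0.359% and 10.9% were called in these comparisons, in order. CHGA rose by 1.57 and NHLH2 by 1.54 on the log2 scale between HH16 and HH20. Of the 3 neuron genes called between HH18 and HH20, CHGA lost its call under 9 of 20 other settings and ISL1 under 5. The CHGA losses included every fit without 1 HH18 or HH20 replicate (adjusted p = 0.054 to 0.21). The remaining gene was not followed through other settings. GAP43 and NEUROD4 were above background on no array. The blood vessel sums were 602.7 to 880.9 at HH16, 754.1 to 1134 at HH18 and 1039 to 1076 at HH20. Of 19 tested vessel genes, 1, EGFL7, rose between HH16 and HH18 (by 0.83), against 4.54% of all tested probe sets called. That call was lost under 7 of 20 other settings. Between HH16 and HH20, 2 rose, EGFL7 by 1.34 and CDH5 by 1.14, against 10.9% called, and 5 of the 19 had negative changes. The CDH5 call was lost without HH16 replicate 1 (0.68, adjusted p = 0.094). The CDH5 call was also lost without any 1 HH20 replicate (adjusted p = 0.063 to 0.084). The macrophage and leukocyte sums were 234.8 to 279.5, 302.2 to 451.3 and 398.1 to 427.9 at the 3 stages in order, with CYBB and MARCO above background on no array. Of 11 tested macrophage and leukocyte genes, 1, CSF1R, rose between HH16 and HH18 (by 0.83, adjusted p = 0.014), against 4.54% of all tested probe sets called. Between HH16 and HH20, 2 rose, against 10.9% called. These were CSF1R, by 0.70, and CD74, which is also on the partner list and whose other probe sets were not called. The erythrocyte sums were 1512 to 3148, 1318 to 4080 and 3239 to 3977, and SLC4A1, TAL1, RHAG and HEMGN were above background on no array. Between HH16 and HH20, 1 of 6 tested erythrocyte genes, HBA1, rose by 0.90, against 10.9% of all tested probe sets called. An unadjusted p under 0.05 in limma was held by 6 of 6, against 24.2% of all tested probe sets. Their median log2 change was 0.80, with 5 positive changes and 1 negative change, that of CA2 (−0.47). The calls on HBA1 and CSF1R between HH16 and HH20 were each lost without 1 of several arrays (adjusted p = 0.087 to 0.15 for HBA1 and 0.059 to 0.078 for CSF1R). So was the CSF1R call between HH16 and HH18 (adjusted p = 0.055 to 0.07). The part of neurons, vessels and blood cells in the CXCR4, CD74 and ADM values was not tested.

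The genes whose profile was most like that of the brightest CXCL12 probe set were named by the root mean square difference of log2 levels, each centred on its mean, over the 9 arrays. Among 10627 candidate genes the nearest were PARVB at 0.122, LAMA1 at 0.123, GALNT5 at 0.124, ICE1 at 0.126 and INTS7 at 0.131. The second CXCL12 probe set lay farther away, at 0.228. PARVB encodes a focal adhesion protein, LAMA1 a laminin chain of basement membranes, GALNT5 an enzyme that starts mucin-type sugar chains, ICE1 a subunit of the little elongation complex and INTS7 a subunit of the integrator complex.

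These genes were picked for their profile, so their values describe the likeness and are no test of it. On the log2 scale the change between HH16 and HH18 was −0.68 for PARVB, −0.48 for LAMA1, −0.58 for GALNT5, −0.57 for ICE1 and −0.53 for INTS7. The change between HH16 and HH20 was −0.74 for PARVB, −0.61 for LAMA1, −0.82 for GALNT5, −0.81 for ICE1 and −0.56 for INTS7. In each of these genes the 3 HH16 arrays were above all 6 later arrays. PARVB was above background on 3 HH16 arrays, 1 HH18 array and 2 HH20 arrays, so the size of its changes is imprecise. LAMA1 was above background on the HH16 arrays alone, and was at least 1.27-fold lower at HH18 and at least 1.4-fold lower at HH20 than at HH16. In limma its change at HH18 was not called (adjusted p = 0.066). Its call at HH20 (adjusted p = 0.01) was lost without HH20 replicate 1 (adjusted p = 0.053). The ICE1 call between HH16 and HH18 (adjusted p = 0.03) was lost under 10 of 20 other settings.

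**Figure D4:**
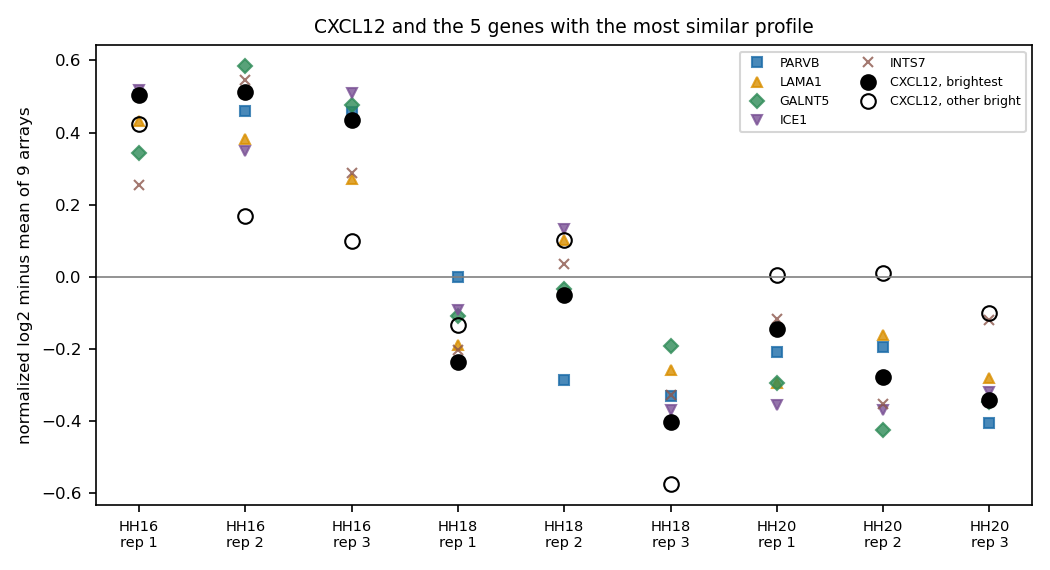
Normalized log2 level minus the mean of the 9 arrays (y axis) on each array for the brightest CXCL12 probe set (filled black circles), the second CXCL12 probe set (open circles) and the 5 genes nearest to the former. The HH16 arrays are above 0 for all of them, and the open circles lie below the filled ones at HH16 and above them at HH20.

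The members were followed through 20 other ways of processing the arrays. The brightest CXCL12 probe set was lower at HH18 than at HH16 in all 20, from −1.16 to −0.62, and passed the test in 19. CXCR4 was higher at HH20 than at HH16 in all 20, from 0.15 to 0.94, and passed in 0, with a lowest adjusted p of 0.052. CXCR7 ranged from 0.06 to 0.55 in the same comparison and passed in 0.

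**Figure D5:**
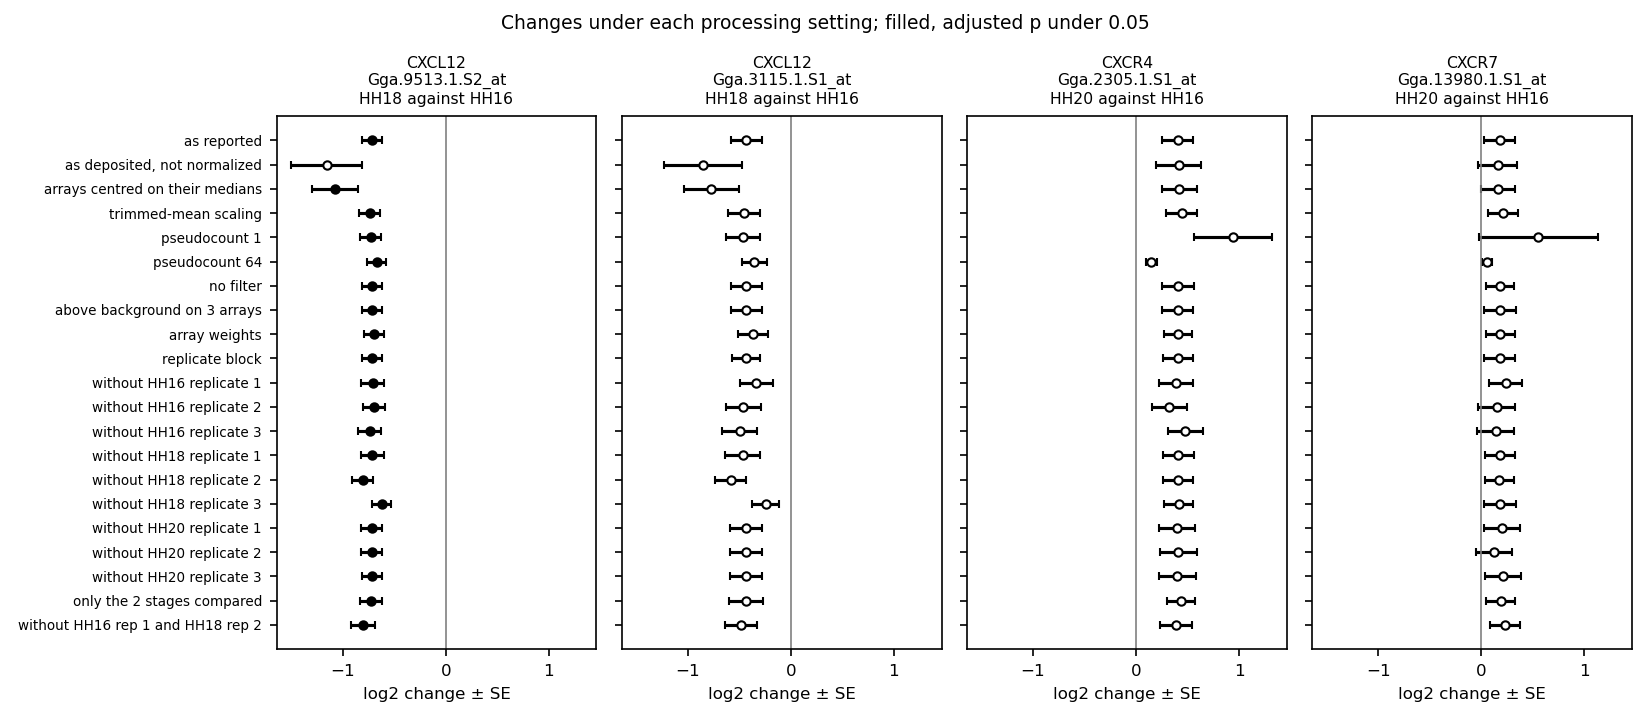
Log2 change with its SE (x axis, points and bars) of the first and second CXCL12 probe set between HH16 and HH18, and of CXCR4 and CXCR7 between HH16 and HH20, under each processing setting (1 line each); filled points have an adjusted p under 0.05. The brightest CXCL12 probe set is filled in all lines except that of the deposited values, at −1.16, and no point is filled for the other probe sets.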

How the data were processed

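Olfactory placodes at 3 stages were measured on 9 arrays, 3 per stage. The authors deposited 1 linear intensity per probe set and array; per the submitters' processing notes the tool was MAS5, whose version and target scaling are not given in the sources used here. It combines perfect-match and mismatch probes, so dim values are imprecise. The table held 38535 probe sets, of which 37693 chicken ones were used, 27166 of them with 1 symbol. The files name no genome build, so no coordinates are given.

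The analysed values were log2(intensity + 16), quantile normalized over the chicken probe sets. Probe sets above the 40th percentile of their array on at least 3 arrays were tested, 24489 in all, with limma 3.58.1 in R 4.3.3 (lmFit and eBayes with trend, all stages in 1 fit, 6 residual degrees of freedom). Tests were two-sided, and p-values were adjusted by Benjamini-Hochberg over the 24489. The median SE of a stage difference was 0.148; precision is limited by having 3 arrays a stage. Replicates are biological per the labels, but nothing says how embryos were pooled, so p-values reflect only how these samples vary. The probe set with the highest mean stood for a gene with several. The shares set beside the counts of a gene list are over all tested probe sets, dimmer ones of the same genes included. "At least" folds set the brighter stage against the higher of background and the dim values.

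The members and gene lists were chosen with earlier results of these data known. Of the other chemokine, partner and signalling lists, called genes were named, up to 6 per comparison by size (CXCL14, EDNRB, FABP7, PRRX2, SOX10, FOXD3 and CA2 were named after their values were seen). Of each marker list, up to 2 called genes were named, and the 5 nearest genes by profile. Other scalings, pseudocounts, filters, array weights, a replicate block and each array left out were tried. Same-numbered replicates showed no pairing: 0 of 9 pairs of their deviations correlated above 0.1. The pipeline was tested on simulated data.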

Additional observations from a re-analysis of the deposited data

How the results depend on the processing

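Over all settings tried, calls on the members changed only for the brightest CXCL12 probe set, and only with the deposited values left unnormalized: −1.16 for HH18 against HH16, −0.86 for HH20 against HH16 and an F of 6.08. With 1 array left out it ranged from −0.81 to −0.62 and from −0.80 to −0.70 in these comparisons and passed the test each time. With HH16 replicate 1, the brightest array, and HH18 replicate 2, the one of highest background, left out together, a setting chosen after seeing the data, it was −0.80 (adjusted p = 0.0034) and −0.73 (adjusted p = 0.00043). RAC1 between HH16 and HH18 turned to −0.10 with the deposited values and −0.020 with median centring. Of 51 named gene changes followed over 20 settings each, 194 values kept their direction but lost the call, and the 2 of RAC1 turned. FABP7, PRRX2, SOX10, FOXD3 and CA2 were not among these, and RGS3 passed in 20 of 20. The count of calls moved more. For HH18 against HH16 (1111) it was 44 with the deposited values, 596 with median centring, 641 with no filter, 577 with only both stages in the fit, 399 without both named arrays and 403 to 1003 with 1 array left out (403 without HH18 replicate 2, 541 without HH16 replicate 2, 634 without HH16 replicate 3). For HH20 against HH18 (88) it was 10 with the deposited values, 32 with no filter, 142 with array weights and 23 to 129 with 1 array left out (55 and 41 without HH18 replicates 1 and 2; 24, 34 and 23 without HH20 replicates 1, 2 and 3). For HH20 against HH16 (2673) it was 176 and 805 with the deposited and median-centred values and 1417 to 3206 with 1 array left out (1417 and 1612 without HH20 replicates 1 and 2). The F test (2130) gave 152 and 931, and 1224 to 2671 with 1 array left out (1244 and 1238 without HH16 replicates 2 and 3; 1224 and 1334 without HH20 replicates 1 and 2). For the later against the earlier step (8) limma gave 0 with the deposited values (1287 at an unadjusted p under 0.05), 15 with trimmed-mean scaling, 0 with no filter (3271), 3 with array weights, 0 without both named arrays (1891) and 0 to 33 with 1 array left out (0 without HH18 replicate 2, HH20 replicate 2 or HH20 replicate 3, with 1694, 2091 and 1863 unadjusted). The share of calls that were higher for HH20 against HH18 was 70.5% here, 82.8% of 87 calls with trimmed-mean scaling, 96.7% of 90 with median centring, where the median of all probe sets moved by 0.141, and 100% of 10 with the deposited values, where it moved by 0.217; for HH20 against HH16 it was 53.2% here and 64.2% with the deposited values. The replicate number as a block gave 818 calls for HH18 against HH16 and 74 for HH20 against HH18, and −0.71 (adjusted p = 0.00083) for the CXCL12 probe set; it changed no member's call, and 3 of 9 arrays correlated best with their own number. The cause of these shifts was not tested. Signals near background limit what the CXCR4 and CXCR7 probe sets can show.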
